A study of Mus musculus with 9 samples.

Results

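Interferon-stimulated genes are the genes that cells switch on when interferon, the alarm protein of virus infection, binds its receptor. A set of 9 of them was followed in RNA pulled down with ribosomes tagged in parvalbumin inhibitory neurons (PV INs) of hippocampal CA3/CA2. The mice had received a lentivirus in the dentate gyrus (DG). Markers of other cell types were also present in this RNA, and which cells the RNA of the 9 genes came from was not tested. The set was chosen by name, namely Stat2, Irf7, Irf9, Ifit1, Ifit3, Isg15, Oasl2, Bst2 and Ifitm3, and its identifiers were matched to mouse symbols. All 9 were among the 37620 genes counted, and all 9 passed the filter on low counts that left 15069 genes to be tested.

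The samples came from 2-month-old male and female mice of the genotype PV-Cre; Rpl22 HA/HA, in which Cre, made where parvalbumin is made, places an HA tag on the ribosomal protein RPL22. Both groups carried this genotype and both received a lentivirus with a GFP reporter. In 5 samples the virus carried a non-target hairpin (shNT), and in 4 it carried a hairpin against Ablim3 (shRNA), which restrains the contacts that mossy fibers of the DG make on PV INs. Each sample pooled CA2/CA3 tissue of 6 mice taken 2 weeks after injection, and the RNA bound to tagged ribosomes was pulled down with anti-HA beads and sequenced. No uninjected group was analysed here, so the response to the injection itself cannot be read from these samples, and the comparison made is between the hairpins.

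Type I interferons signal through the receptor chains IFNAR1 and IFNAR2 and the kinases JAK1 and TYK2. The kinases activate STAT2, which binds IRF9 within the complex ISGF3. ISGF3 binds the interferon-stimulated response element (ISRE) in promoters, and IRF7 then amplifies the response by driving more interferon. Among the products, IFIT1 binds viral RNA and blocks its translation, and IFIT3 belongs to the same family. ISG15 is a ubiquitin-like tag, and OASL2 belongs to the 2′-5′ oligoadenylate synthetase family. BST2 (tetherin) holds budding virions at the membrane, and IFITM3 blocks fusion of virus with the endosome. In the healthy brain these genes are transcribed at low levels in many cell types, including vascular cells and glia.

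Because ISGF3 binds the ISRE, the stretches that hold the core of this element are shown first. RefSeq promoter windows (GRCm38.p6, from 250 bases before to 50 bases after each transcription start) were searched on both strands for GAAANNGAAA, the ISRE core, which on the other strand reads TTTCNNTTTC. It was found in 6 of the 9 genes, against 3.99% of all 27025 genes with a window, and 5 of the 6 held more than one match, against 0.266% of all genes. Capitals mark the matches, sequences read 5′ to 3′ on the strand of the gene, and matches that overlap run together.

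Stat2, chr10:128270264-128270297 (+): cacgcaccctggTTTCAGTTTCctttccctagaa

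Ifit1, chr19:34640773-34640825 (+): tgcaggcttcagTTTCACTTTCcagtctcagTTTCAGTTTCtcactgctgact

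Ifit3, chr19:34583361-34583428 (+): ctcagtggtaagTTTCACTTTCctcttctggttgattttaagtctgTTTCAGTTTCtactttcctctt

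Isg15, chr4:156200863-156200908 (-): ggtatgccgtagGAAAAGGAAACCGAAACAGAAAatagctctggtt

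Bst2, chr8:71537575-71537614 (-): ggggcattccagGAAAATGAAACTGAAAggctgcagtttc

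Ifitm3, chr7:141010715-141010744 (-): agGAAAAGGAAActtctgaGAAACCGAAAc

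Isg15 had 3 overlapping matches between 78 and 57 bases before its start, Bst2 had 2 that overlap, and Ifit1 and Ifit3 each had a separate pair. In Ifitm3 both matches lie within the first 30 transcribed bases, and the single match of Stat2 lies 222 to 213 bases before its start. The exact letters were absent from the windows of Irf7, Irf9 and Oasl2. For Irf7, Stat2 and Bst2, a short stretch just after the RefSeq start was not found in the transcripts of the gene checked here. Their windows and positions therefore rest on the RefSeq start alone. The core was also found in 45 of 114 other interferon pathway genes that had a window (39.5%). The core of the other interferon element, GAS (TTCNNNGAA), was found in 2 of the 9 genes (Bst2 and Ifitm3), overlapping an ISRE match in both, against 9.55% of all genes. These are matches of letters, and binding was not measured.

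**Figure D1:**
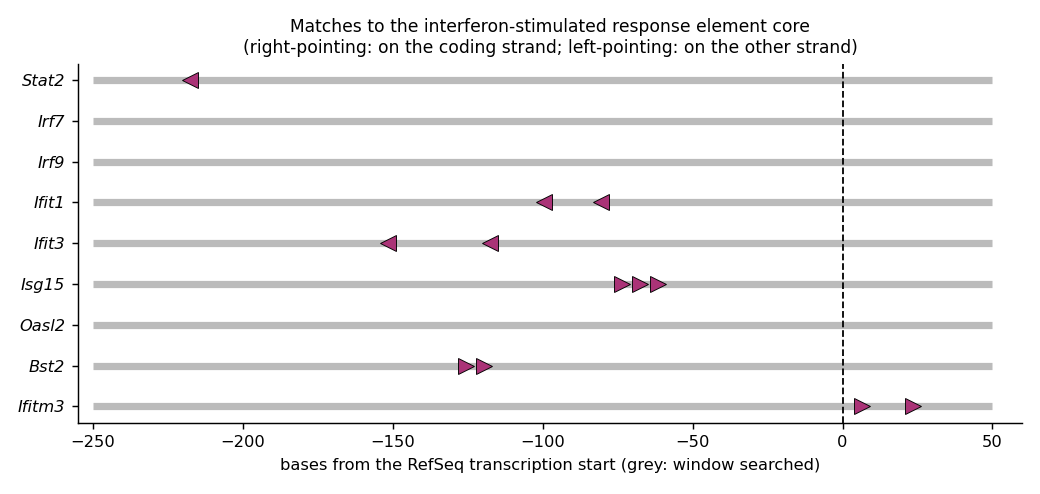
Position of each match to the ISRE core in the promoter windows of the 9 genes, in bases from the RefSeq transcription start (dashed line). Grey bars are the windows searched, and triangles point along the strand of the match; 6 genes have matches and Irf7, Irf9 and Oasl2 have none.

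The libraries held between 18281719 and 34578837 reads on genes. Levels are given as CPM, counts scaled to library size with TMM factors, and for comparison between genes as RPKM, CPM per kilobase of exon. Of all genes tested, 1.75% were called differentially expressed (edgeR's quasi-likelihood test at a Benjamini-Hochberg FDR under 0.05, past 1.5-fold). PV IN markers were present throughout, and all 14 on the list passed the filter. Their summed level ran from 10230 to 16310 CPM in the shNT samples and from 10280 to 13480 CPM in shRNA replicates 1 to 3, and it was 5626 CPM in shRNA replicate 4. That replicate also had 5453 CPM of astrocyte markers, against 655 to 1334 CPM in the other 8 samples, and 27.2% of its reads outside exons, against 9.77 to 19.8%. Ablim3 itself, targeted in the DG and not in PV INs, lay between 12.1 and 22.6 CPM in the shNT and between 13.7 and 21.6 CPM in the shRNA samples.

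All 9 genes were detected in every sample, mostly at low levels. Ifitm3 stood highest with 15.9 ± 11.9 RPKM (SD over 9 samples), the 74.8th percentile of the genes tested, and it exceeded the next gene in 9 of 9 samples. Ifit3 (4.45 ± 0.763 RPKM), Stat2 (3.73 ± 1.89 RPKM) and Bst2 (3.05 ± 2.07 RPKM) followed. Neighbours in this order did not separate: Ifit3 exceeded Stat2 in 6 of 9 samples, and Stat2 exceeded Bst2 in 6 of 9. Isg15 (2.12 ± 1.61 RPKM) lay below Bst2 in 9 of 9 samples and above Oasl2 (1.53 ± 0.537 RPKM) in 5 of 9. The lowest were Ifit1 with 1.17 ± 1.03, Irf9 with 1.02 ± 0.695 and Irf7 with 0.777 ± 0.606 RPKM, the last at the 17.7th percentile. Oasl2 exceeded Ifit1 in 8 of 9 samples, Ifit1 exceeded Irf9 in only 3 of 9, and Irf9 exceeded Irf7 in 8 of 9. Because reads that align to more than 1 place were not counted, the level of Ifit3 is uncertain. Among its 50-base stretches, 51.5% also occur in the transcripts of its neighbour Ifit3b, against 10% for Ifitm3, 7.13% for Ifit1 and 2.39% for Irf9, whose stretches are shared with the overlapping gene Rnf31.

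Between the groups, none of the 9 genes was called in either direction, with 1.74% of all genes called higher and 0.0133% called lower. Their fitted log2 fold change was above 0 in 8 of 9, as it was in 57.9% of all genes, and its median was 0.10, against 0.11 over all genes. An unadjusted p under 0.05 was reached by 1 of the 9 (Stat2) and by 34.1% of all genes. The samples are pools from separate tissue, and p-values here measure the spread between these pools. A bulk pull-down cannot tell fewer cells of a type from less RNA per cell.

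Stat2 (ENSMUSG00000040033, mm9 chr10:127707629-127729905), the STAT used chiefly by type I and type III interferons, was the one gene whose groups did not overlap. It had 13.6, 13.1, 13.5, 10.5 and 8.87 CPM in shNT replicates 1 to 5, and the shRNA samples had 17.0, 17.4, 16.7 and 37.3 CPM for replicates 1 to 4. All 4 shRNA samples lay above all 5 shNT samples, a pattern seen in 8.97% of all genes tested (the reverse was seen in 6.68%, and in none of the 9, so that 15.6% of all genes did not overlap in one direction or the other), and shRNA replicate 4 stood far above the other 3. The log2 fold change was 0.89 (standard error, SE, 0.26, 95% interval 0.32 to 1.46) with an FDR of 0.0655 in edgeR's quasi-likelihood test, which missed the threshold. The exact two-sided permutation test of the log2 level gave p = 0.00794, the smallest that 9 samples split this way allow. This p restates the separation of the groups and was not adjusted over the 9 genes. Other tests called Stat2 higher in the shRNA samples, with an FDR of 0.0195 in edgeR's likelihood ratio test, 0.0199 in its exact test, 0.0208 in DESeq2 and 0.00798 in limma voom with sample quality weights. These tests also called 10.1 to 15.3% of all genes higher, and a newer quasi-likelihood fit of edgeR, with 2.59% called higher, left Stat2 uncalled. Without shRNA replicate 4 the log2 fold change was 0.50 (95% interval 0.13 to 0.87, FDR 0.138, edgeR quasi-likelihood test).

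Irf9 and Irf7 did not show this separation. Irf9 (ENSMUSG00000002325, mm9 chr14:56222408-56228867), which gives ISGF3 its DNA contact, had 4.48, 6.56, 3.53, 4.44 and 3.29 CPM in the shNT samples and 5.05, 3.55, 3.48 and 15.1 CPM in the shRNA samples. Replicates 1 to 3 of the shRNA group fell inside the shNT range, and replicate 4 lay above every other sample. The log2 fold change of Irf9 was 0.61 (SE 0.43, FDR 0.323, edgeR quasi-likelihood test), and it was -0.17 without shRNA replicate 4.

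Irf7 (ENSMUSG00000025498, mm9 chr7:148448605-148452380) had 3.23, 2.25, 1.06, 2.32 and 0.878 CPM in the shNT samples and 2.06, 1.17, 1.37 and 6.80 CPM in the shRNA samples. Here too the first 3 shRNA samples lay within the shNT range and replicate 4 stood above it. Its log2 fold change was 0.55 (SE 0.56, FDR 0.494, edgeR quasi-likelihood test), or -0.35 without shRNA replicate 4. Exons of Phrf1 on the other strand overlap 45 bases of Irf7, and the counting ignored strand.

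The IFIT genes are neighbours on chromosome 19. Ifit1 (ENSMUSG00000034459, mm9 chr19:34715361-34724499) had 3.23, 2.52, 1.54, 3.68 and 1.44 CPM in the shNT samples and 2.46, 1.6, 1.42 and 10.1 CPM in the shRNA samples. Its value in shRNA replicate 4 was 4.49 times the mean of the other 8 samples, the highest such ratio of the 9 genes. Ifit3 (ENSMUSG00000074896, mm9 chr19:34658021-34663221) had 9.17, 7.71, 7.03, 9.53 and 6.36 CPM in the shNT samples and 7.54, 6.57, 6.38 and 9.55 CPM in the shRNA samples. It was the most even of the set, with a value in shRNA replicate 4 only 1.27 times the mean of the others and level with shNT replicate 4. The log2 fold change was 0.65 (SE 0.57, FDR 0.425) for Ifit1 and -0.08 (SE 0.20, FDR 0.784, edgeR quasi-likelihood test) for Ifit3. Without shRNA replicate 4 these values were -0.44 and -0.23.

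Isg15 (ENSMUSG00000035692, mm9 chr4:155573533-155574927), with the densest run of ISRE cores shown above, had 1.71, 2.94, 0.720, 1.21 and 1.35 CPM in the shNT samples and 0.963, 0.391, 0.949 and 4.19 CPM in the shRNA samples. These values come from 11 to 93 reads per library. The highest shNT sample was replicate 2, and the lowest sample was shRNA replicate 2. The log2 fold change was 0.03 (SE 0.63, 95% interval -1.34 to 1.41, FDR 0.975, edgeR quasi-likelihood test), and -1.08 without shRNA replicate 4.

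Oasl2 (ENSMUSG00000029561, mm9 chr5:115346943-115362243) had 6.96, 5.46, 4.22, 7.11 and 5.27 CPM in the shNT samples and 5.21, 3.73, 4.85 and 10.6 CPM in the shRNA samples. The groups overlapped, and replicate 4 was again the highest. Its log2 fold change was 0.07 (SE 0.31, 95% interval -0.60 to 0.74, FDR 0.88, edgeR quasi-likelihood test), or -0.35 without shRNA replicate 4.

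The membrane proteins shared a pattern. Bst2 (ENSMUSG00000046718, mm9 chr8:74058163-74061336) had 2.24, 4.49, 0.754, 2.17 and 1.88 CPM in the shNT samples and 2.19, 0.923, 1.00 and 5.32 CPM in the shRNA samples. Ifitm3 (ENSMUSG00000025492, mm9 chr7:148195485-148196669) had 9.27, 19.5, 4.83, 10.3 and 8.43 CPM in the shNT samples and 7.31, 3.84, 5.27 and 28.5 CPM in the shRNA samples. In both genes shRNA replicate 4 was highest and shNT replicate 2 was second. That order was also found in Irf9 and Isg15, 4 of the 9 genes in all, and in 7.03% of all genes. Across the samples the log2 levels of Isg15 and Ifitm3 had the highest correlation of the 36 gene pairs, followed by those of Bst2 and Ifitm3 (Pearson's r = 0.969 and 0.963, 9 samples, and 0.947 and 0.952 without shRNA replicate 4, where the pair Ifit1 and Ifit3 was highest with 0.97, against 0.879 over all samples). The log2 fold change was 0.04 (SE 0.58, FDR 0.97) for Bst2 and 0.10 (SE 0.56, 95% interval -1.14 to 1.34, FDR 0.911, edgeR quasi-likelihood test) for Ifitm3. Without shRNA replicate 4 the value for Ifitm3 was -0.97 (95% interval -1.90 to -0.05, FDR 0.178) and for Bst2 it was -0.77.

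**Figure D2:**
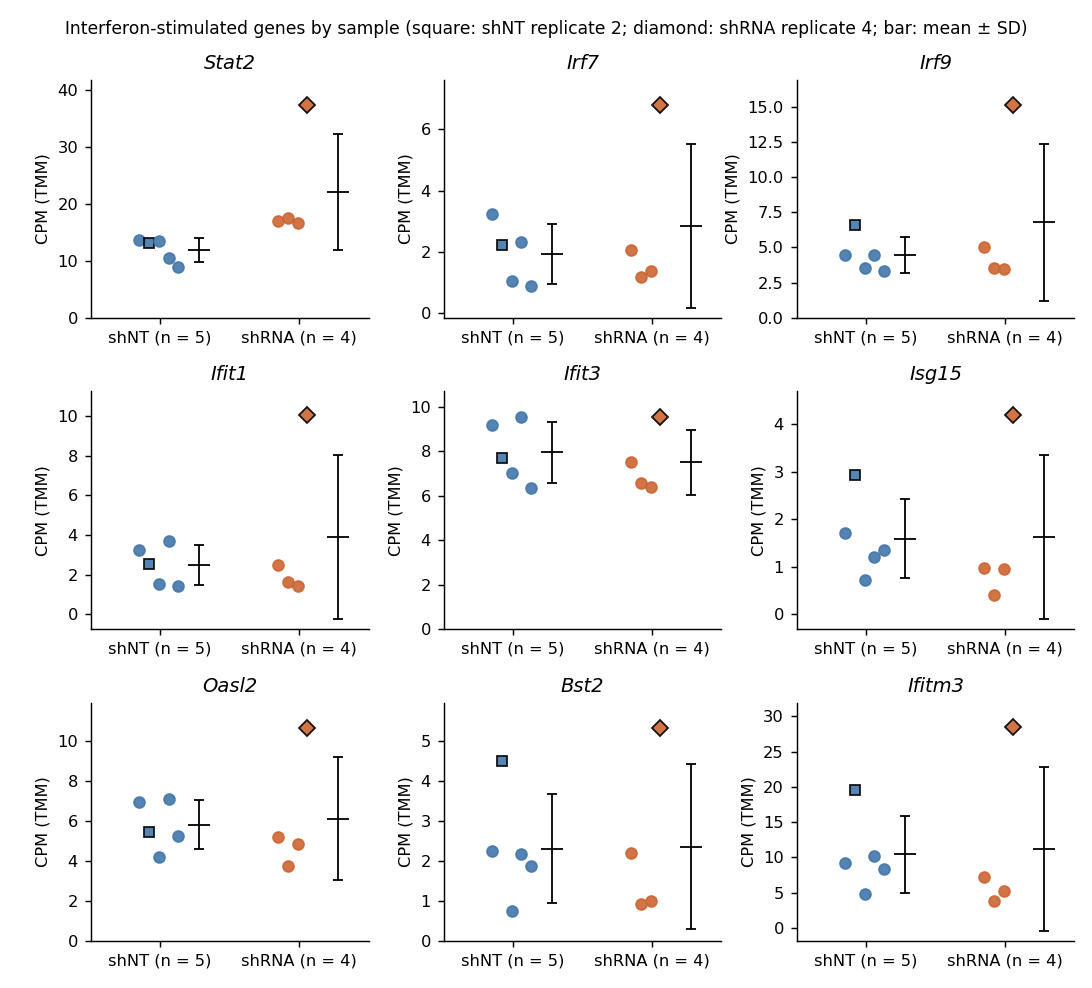
Normalized level (CPM, linear axis) of each gene in each sample, with shNT in blue (5 samples) and shRNA in orange (4 samples); bars give the mean ± SD of each group. The diamond, shRNA replicate 4, is the highest sample in 9 of 9 panels, and only in the Stat2 panel do the other 3 shRNA samples also lie above all shNT samples.

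Library by library, shRNA replicate 4 was the highest of the 9 samples in 9 of 9 genes, as it was in 33.3% of all genes tested. Its summed level over the set was 127 CPM, against 39.2 to 49.8 CPM in the other shRNA samples and 37.2 to 64.5 CPM in the shNT samples. Without it, the fitted change was above 0 in 1 of 9 genes (Stat2) and in 53% of all genes, and the median was -0.35 against 0.03 over all genes. None of the 9 genes was then called, where 0.978% of all genes were, and the lowest FDR was 0.138 (edgeR quasi-likelihood test). Two-sided exact permutation tests of the log2 level of the 8 genes other than Stat2, over all samples, gave p between 0.563 and 0.968. Within the 6 samples named YTa31 (3 of each group, without shRNA replicate 4) 1 of 9 changes was above 0, against 51.4% of all genes, and 0 genes of any kind were called. Leaving out shNT replicate 2 as well as shRNA replicate 4 gave 2 of 9 above 0 (53.1% of all genes) and no call in the set (4.77% of all genes). With a covariate for reads outside exons 1 of 9 was above 0, against 56.1% of all genes. The sign also depended on the scale for 4 of the genes: the mean CPM of Isg15, Oasl2, Bst2 and Ifitm3 was slightly higher in the shRNA group and the mean of log2 levels slightly lower.

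**Figure D3:**
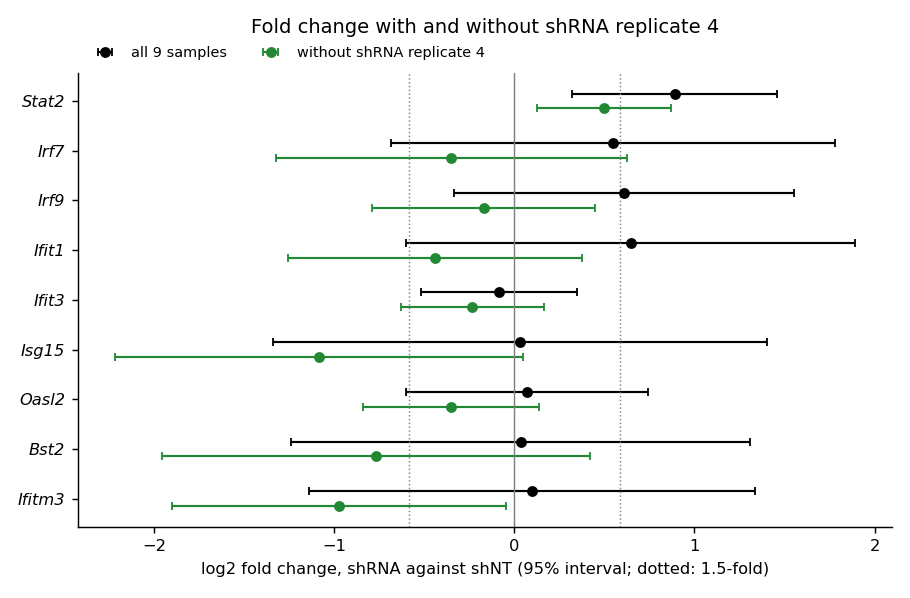
log2 fold change of each gene (shRNA against shNT, edgeR quasi-likelihood fit) with its 95% interval, over all 9 samples in black and without shRNA replicate 4 in green. Only the Stat2 interval lies above 0 in both fits; the other 8 green points lie below 0, from -0.17 (Irf9) to -1.08 (Isg15).

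The rest of the pathway was read from lists of 147 further genes, of which 146 had an identifier and 100 were tested. None was called in either direction, where 1.75% of all genes were. The fitted change was above 0 in 84 of 100 with a median of 0.38, against 57.9% and 0.11 over all genes. Without shRNA replicate 4 it was above 0 in 43 of the 94 still tested with a median of -0.03, against 53% and 0.03. shRNA replicate 4 was the highest sample for 69 of the 100 and for 33.3% of all genes. Both the 100 and all genes include some that passed the filter only through that sample. Those had to be high there, which raises these counts. An unadjusted p under 0.05 was reached by 10 of the 100 and by 34.1% of all genes. The groups did not overlap for 6 of the 100, with shRNA above for 4 (8.97% of all genes) and below for 2 (6.68%).

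No interferon gene was detected. All 21 interferon genes on the list, including Ifnb1 and Ifng, had 0 counts in all 9 libraries. A count of 0 allows up to 3 counts, which is 0.0868 to 0.164 CPM in a single library, and this covers counting error only. Several interferon alpha genes are near-identical copies whose reads would align to more than 1 place and not be counted. The 7 interferon-induced chemokines were all below the filter, with at most 18 reads in a library, for Cxcl10.

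The receptors and kinases were expressed. Ifnar1 had 24.5 CPM on average in the shNT and 39.3 CPM in the shRNA samples (log2 fold change 0.68, FDR 0.114, edgeR quasi-likelihood test, and 0.37 without shRNA replicate 4), and Ifnar2 ran from 15.7 to 20.2 CPM in the shNT and from 13.7 to 20.5 CPM in the shRNA samples (-0.10, FDR 0.662). Jak1 was the most abundant of this list, with 170 and 219 CPM (0.37, FDR 0.234, edgeR). Tyk2, the kinase on IFNAR1, ranged from 3.48 to 7.64 CPM in the shNT and from 8.06 to 21.3 CPM in the shRNA samples. It had the largest change of its list (1.15, FDR 0.0654, edgeR quasi-likelihood test; 0.82 without shRNA replicate 4). The groups did not overlap in one direction or the other for 3 of the 8 genes tested on this list, against 15.6% of all genes. These were Tyk2, Jak2 and Ifngr2, the last 2 named after their values were seen. Jak2 had 8.24 to 19.04 CPM in the shNT and 22.1 to 32.1 CPM in the shRNA samples (0.93, FDR 0.0589, edgeR quasi-likelihood test), and Ifngr2, a chain of the interferon gamma receptor, went the other way (-0.20, FDR 0.232, edgeR). Over the 8 genes the median log2 fold change was 0.52, and it was 0.13 with 4 of 8 above 0 without shRNA replicate 4.

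Among the other STAT and IRF factors, Stat3 was the most abundant (54.5 and 66.1 CPM) and Irf1 had the largest change (0.74, FDR 0.242, edgeR). The median of these 7 genes was 0.28, or 0.13 without shRNA replicate 4. For the sensors and adaptors of foreign nucleic acid, 13 tested, the median was 0.54 (0.23 without shRNA replicate 4), with Tbk1, the kinase that activates IRF3, at 42.1 and 53.1 CPM and Ticam1, the adaptor of TLR3, at 0.667 and 1.54 CPM (1.18, FDR 0.135, edgeR).

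Among 40 other antiviral effectors the median was 0.43, and it was -0.006 with 18 of 37 above 0 without shRNA replicate 4. Ifit2, next to Ifit1 and Ifit3, had 17.0 and 16.1 CPM (log2 fold change -0.07, FDR 0.822), and Ifit3b had 5.92 and 4.61 CPM (-0.36, FDR 0.200, edgeR quasi-likelihood test). In contrast to the 9 genes, Ifit2 and Ifit3b were not highest in shRNA replicate 4, where they had 13.6 and 4.82 CPM. Adar, the RNA-editing enzyme, was the most abundant (104 and 124 CPM), and Trim34a had the largest change (1.14, FDR 0.204, edgeR) at 0.466 and 1.04 CPM, with 44.4% of its exons shared with another gene. Mx1, a classic interferon target, had 25 reads over all 9 libraries and was below the filter. Of the listed genes outside the ligands, Ifi44l and Psmb9 also had 0 counts, and 99.97% of the Psmb9 exons overlap another gene.

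The 12 interferon-induced GTPases were highest in shRNA replicate 4 without exception, where 33.3% of all genes were highest. Genes that passed the filter only through that sample had to be high there, and 9 of the 12 passed without it. The median log2 fold change of the 12 was 0.71, and it was -0.33 over the 9 still tested without shRNA replicate 4. Irgm1 was the most abundant (6.35 and 8.90 CPM), and Tgtp2 had the largest change (1.55, FDR 0.178, edgeR), from 94 reads in all. Of the 10 antigen presentation genes tested, 7 had a change above 0 and the median was 0.14, but without shRNA replicate 4 only 1 did and the median was -0.53. Psmb10, an immunoproteasome subunit and the most abundant by CPM, had 84.0 and 54.8 CPM (-0.61, FDR 0.0660, edgeR quasi-likelihood test), and Tap1, a peptide transporter, had 1.99 and 3.36 CPM (0.76, FDR 0.270). For the 10 negative regulators the median was 0.33, or 0.02 without shRNA replicate 4. Usp18, which strips ISG15 from proteins and damps the receptor, had 0.756 to 1.67 CPM in the shNT samples, 0.264 to 1.23 CPM in shRNA replicates 1 to 3 and 8.07 CPM in replicate 4 (1.02, FDR 0.342, edgeR; -0.72 without replicate 4). Ptpn11, a phosphatase and the most abundant of this list, had 110 and 95.2 CPM (-0.21, FDR 0.273, edgeR).

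**Figure D4:**
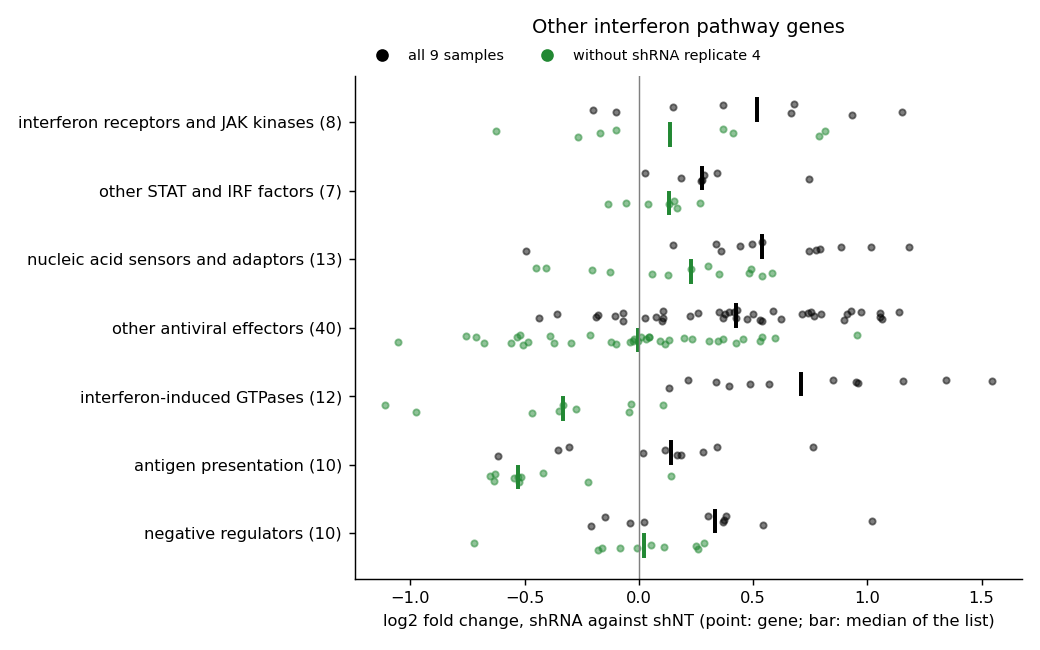
log2 fold change (shRNA against shNT) of each of 100 other interferon pathway genes tested, grouped by role with the number tested in brackets; points are genes and bars are list medians, over all 9 samples in black and without shRNA replicate 4 in green. The GTPase median was 0.71 over 12 genes and -0.33 over the 9 still tested. These 2 medians cover different genes, and genes that passed the filter only through shRNA replicate 4 had to be high there. The interferon and chemokine genes are absent because none passed the filter.

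Markers of other cell types were set beside the 9 genes. All 14 endothelial markers passed the filter and were highest in shRNA replicate 4. Their summed level was 197 to 484 CPM in the shNT samples, 137 to 247 CPM in shRNA replicates 1 to 3, and 1225 CPM in replicate 4. Mural cell markers, 8 of 8 tested, summed to 46.0 to 182 CPM, 36.8 to 57.7 CPM and 321 CPM in the same order. Of these 8, 6 were highest in shRNA replicate 4, while Acta2 and Tagln were highest in shNT replicate 2. Microglia markers, 15 of 15 tested, summed to 102 to 210 CPM in the shNT and 152 to 174 CPM in the shRNA samples. The sum was 157 CPM in shRNA replicate 4 and so was not raised there. Single microglia markers differed, and 3 of the 15 were highest in that sample, against 33.3% of all genes. Macrophage and monocyte markers summed to at most 6.40 CPM and T and NK cell markers to at most 2.66 CPM in any sample, and no marker on any of these lists was at 0 in all libraries.

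The level of the set followed the vascular markers from sample to sample. As a description, the mean standardized log2 level of the 9 genes and the mean log2 level of the endothelial markers had a Pearson's r of 0.973 and a Spearman's rho of 0.983 over the 9 samples. Leaving out shNT replicate 2 and shRNA replicate 4, the samples farthest from the median marker level, r was 0.904. Within the 6 samples named YTa31 it was 0.938; the YTa32 set, with 2 shNT samples and 1 shRNA sample, is too small for its own value. Mural cell markers gave an r of 0.953 (0.912 with the same 2 samples left out).

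For microglia markers r was 0.115 and rho 0.383, with an r of 0.2 without shNT replicates 2 and 4 and of 0.63 within the YTa31 samples. For astrocyte markers r was 0.76 but -0.22 without shNT replicate 3 and shRNA replicate 4, so that the latter relation rests on those samples. The share of reads outside exons gave 0.774, and 0.378 without shRNA replicates 1 and 4. PV IN markers gave -0.83, and -0.15 without shNT replicate 2 and shRNA replicate 4. These 6 relations use libraries that share their depth and normalization, and no test is given because the set was chosen with results known. The part of vascular RNA in the levels of the 9 genes was not tested.

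Single genes differed in this respect. With the endothelial markers r lay between 0.776 (Ifit3) and 0.932 (Isg15) for 8 of the 9 genes, and between 0.72 and 0.9 without shRNA replicate 4. For Stat2 it was 0.567, and -0.236 without shRNA replicate 4, while its r was 0.92 with the astrocyte, 0.792 with the excitatory neuron and 0.749 with the oligodendrocyte markers (0.71, 0.907 and 0.709 without that sample). Stat2 also had the lowest correlations with the rest of the set, between 0.307 (Ifit3) and 0.764 (Irf9), where the median over all 36 pairs was 0.796. The levels of these 3 marker lists also leaned towards the shRNA samples. All 10 excitatory neuron markers had a fitted change above 0, against 57.9% of all genes, with a median of 0.75 (0.74 without shRNA replicate 4). Of these 10 markers, 1 (Grik4) was called higher in the shRNA samples, against 1.74% of all genes. The summed level of the 10 markers was 675 to 1637 CPM in the shNT and 1745 to 2180 CPM in the shRNA samples, without overlap. The exact two-sided permutation test of their mean log2 level gave p = 0.0159. All 12 astrocyte markers had a change above 0, with a median of 1.41 (0.43 without shRNA replicate 4) and an exact permutation p of 0.0238. All 9 oligodendrocyte markers did too, with a median of 0.77 (0.64 without shRNA replicate 4) and an exact permutation p of 0.0397. With Benjamini-Hochberg adjustment over the 10 marker lists these permutation p-values became 0.119, 0.119 and 0.132, past no threshold of 0.05. The lists were chosen with earlier results of these data known, so these p-values carry no support. The part of these markers in the values of Stat2 was not tested.

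**Figure D5:**
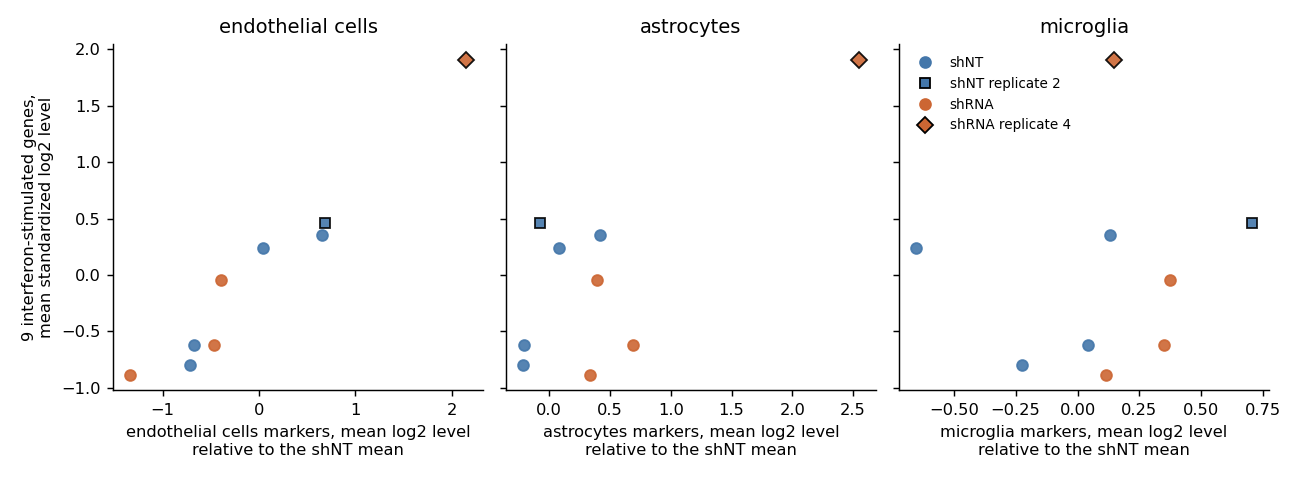
Mean standardized log2 level of the 9 genes in each sample (vertical) against the mean log2 level of endothelial, astrocyte and microglia markers, relative to the shNT mean (horizontal); each point is a sample, shNT in blue and shRNA in orange. Points follow the endothelial axis (r = 0.973) and are scattered along the microglia axis (r = 0.115 over all samples, 0.63 within the YTa31 samples), and on the astrocyte axis shRNA replicate 4 stands alone at 2.55.

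Outside the set, the 10 tested genes with the level most like its mean over the 9 samples were Ceacam1, Scarf1, Cd93, Atp2a3, Nos3, Ebf1, Ctsh, BC020535, Rasip1 and Acvrl1, with Pearson's r from 0.992 to 0.983. For single genes the most alike were Ramp2 and Gimap9 for Isg15 (r = 0.993 and 0.99), Rras and Vtn for Ifitm3 (0.991 and 0.987), and Filip1l and Sema3g for Bst2 (0.978 each). B3gnt3 and Acer2 were nearest to Irf7 (0.998 and 0.984), Slc38a11 and Rgl2 to Irf9 (0.991 and 0.988), and 8430408G22Rik and Col1a1 to Ifit1 (0.99 and 0.976). Mlkl and Pcolce were nearest to Ifit3 (0.943 and 0.933) and Atp2a3 and Mecom to Oasl2 (0.969 and 0.965). Stat2 was closest to 4930402H24Rik and Lingo2 (0.991 and 0.987). With 9 samples and 15060 genes to choose from, such values are a description of these libraries.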

How the data were processed

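The deposited files hold raw read counts per gene for 5 shNT and 4 shRNA samples. According to the study's methods and the submitters' processing notes, the authors sequenced SMARTer libraries as 50-base reads, aligned them to the mm9 transcriptome with STAR (version not given in the sources used here), and counted uniquely aligned reads without regard to strand with HTSeq 0.6.0; the annotation is not given in the sources used here. Counts were deposited without normalization. Unstranded counting adds reads of overlapping antisense genes, and dropping reads with several alignments lowers near-identical copies.

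Groups came from the sample titles. GENCODE annotation of mm9 named 37205 of 37620 identifiers and gave exon lengths. Rows that name no gene (outside exons, ambiguous, multiple alignments) stayed out of library sizes; reads outside exons are given as a percent of uniquely aligned reads (9.77 to 27.2%). Genes reaching 1 CPM in 1 or more samples (15069, with 22551 removed) were scaled by TMM and compared by the quasi-likelihood test of edgeR (R 4.3.3, edgeR 4.0.16, limma 3.58.1), with group as the only term. Genes were called at an FDR under 0.05 (Benjamini-Hochberg) and at least 1.5-fold. The biological coefficient of variation was 0.303. log2 levels used a prior count of 2. Single values were compared by the exact two-sided permutation test over samples. The fits were tested on simulated counts. No 2 libraries were alike within counting noise.

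The 9 genes and all lists were chosen with earlier results of these data known. Genes named from the lists were the most abundant by CPM, the one with the largest change and a few set by name (Ifnar1, Ifnar2, Jak1, Tyk2, Usp18, Ifit2, Ifit3b, Mx1 and Ifnb1; 1 further gene is not reported here), and other names were chosen after their values were seen. Alternatives tried were other tests, normalizations and filters, no minimum change, a block for replicate number or for the sample name set (YTa31 and YTa32; whether these are batches is not stated), the YTa31 set alone, a covariate for reads outside exons, other prior counts, and each sample left out in turn.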

Additional observations from a re-analysis of the deposited data

Results flagged for a closer look

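Each group of 4 or 5 samples was searched for a single sample far from the rest, by Dixon's 95% limits on the gap to the nearest sample over the range. Of 36 groups of values, 6 were marked, where chance alone would mark about 1.8 on average. The groups come from the same libraries and are not independent, so these counts do not measure an excess over chance. In the shRNA group, the log2 level of Stat2 was 5.22 in replicate 4, with the next at 4.13 and the lowest at 4.07. In the same sample the mean log2 level of mural cell markers relative to shNT was 1.75 (next, -0.58) and that of astrocyte markers was 2.55 (next, 0.69). The share of alignments at more than 1 place was 8.24% there and at least 10.6% in the other shRNA samples. In the shNT group, replicate 2 had the lowest mean log2 level of PV IN markers, -0.51 (next, 0.05), and 18.6% of its reads outside exons (next, 11.3%). The part of these differences in the levels of the interferon-stimulated genes was not tested.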

How the results depend on the processing

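Stat2 kept a change above 0 in 27 of 27 alternatives (0.31 to 1.00 on the log2 scale) and Ifit3 one below 0 in 27 of 27 (-0.29 to -0.01). The other 7 changed sign in 4 (Irf9) to 14 (Isg15 and Bst2) of the 27, and the cause was not tested. The 27 include the reported fit itself and the setting with no minimum change, which keeps its fold changes. Neither of these could change a sign. No alternative called a gene of the set other than Stat2, which 4 tests called: 1 gene of the set was called higher with edgeR's likelihood ratio test, its exact test, DESeq2 and limma voom with sample quality weights (limma voom from here on). Without any minimum fold change the set still had 0 calls.

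Over all genes, 1688 were called higher and 542 lower with the likelihood ratio test, 1659 and 534 with the exact test, 1519 and 844 with DESeq2, and 2301 and 618 with limma voom, against 262 and 2 in the quasi-likelihood test. The quasi-likelihood fit of version 3 is the default used here and so gave the same values, and that of version 4, added after seeing the data, called 391 and 6. Library size only, upper quartile scaling, filterByExpr, the YTa31 samples alone and the covariate for reads outside exons each left 0 higher and 0 lower, where unadjusted p under 0.05 was reached by 5263, 5360, 5139, 1493 and 4479 genes. No filter gave 501 and 14, and a filter on 4 samples gave 8 lower. DESeq2 size factors and the name set as a block each gave 1 lower. Without shNT replicate 2 and shRNA replicate 4 there were 678 higher. With each sample left out in turn there were between 0 and 1007 higher and between 0 and 410 lower.

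Values below 0 for genes above 0 in the reported fit were as follows, on the log2 scale. Isg15 and Bst2 had -0.020 and -0.019 with DESeq2, -0.022 and -0.017 with its size factors, -0.011 and -0.0063 with no filter, and -0.19 and -0.081 with the name set as a block, where Ifitm3 had -0.14. With filterByExpr Isg15 had -0.069, Oasl2 -0.0079, Bst2 -0.063 and Ifitm3 -0.0046. In the order Irf7, Irf9, Ifit1, Isg15, Oasl2, Bst2 and Ifitm3, limma voom gave -0.25, -0.13, -0.57, -0.68, -0.35, -0.68 and -0.75. The YTa31 samples alone gave -0.54, -0.31, -0.44, -1.26, -0.31, -0.89 and -1.08. The covariate for reads outside exons gave -0.59, -0.38, -0.67, -1.37, -0.41, -1.21 and -1.25. Without shNT replicate 2 and shRNA replicate 4 the values were -0.25 for Irf7, -0.40 for Ifit1, -0.70 for Isg15, -0.34 for Oasl2, -0.33 for Bst2 and -0.57 for Ifitm3. With single samples left out, the range was -0.35 to 0.82 for Irf7, -0.17 to 0.82 for Irf9, -0.44 to 0.92 for Ifit1, -1.08 to 0.37 for Isg15, -0.35 to 0.25 for Oasl2, -0.77 to 0.42 for Bst2 and -0.97 to 0.45 for Ifitm3.

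The sample titles do not say whether equal replicate numbers pair the samples. Deviations of equal numbers correlated at -0.27, -0.64, 0.49 and -0.18, and these few values cannot decide it. With the replicate number as a block, 29 genes were called higher and 0 lower, no gene of the set was called, and Isg15 had -0.33, Oasl2 -0.045, Bst2 -0.11 and Ifitm3 -0.24. Prior counts of 0.5 and 5 left the permutation results on the same side of the threshold.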
